A study of Mus musculus with 104 samples.

Results

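Tmem119, P2ry12, P2ry13, Olfml3, Fcrls and Gpr34 are best known as genes of microglia, the resident macrophages of the brain, and were followed here in mouse liver macrophages and in cultured macrophages. The 6 genes were taken by symbol, and each was found once in all 8 expression tables of the study, among 24940 listed genes. The tables held 104 poly(A) RNA-seq libraries in 47 groups of 2 to 4 libraries, with levels in TPM, a unit that scales reads by gene length and library size. Reads recovered from the TPM steps came to 7830297 to 27776806 per library.

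The groups were as follows. Ly6C high blood monocytes came from C57BL/6J mice. Repopulating liver macrophages, the cells that refill the liver after Kupffer cells are killed, came from Clec4f-cre/Rosa26iDTR mice, in which Clec4f-cre, active in Kupffer cells, switches on the diphtheria toxin receptor. They were taken 12, 24, 48, 72, 168 and 336 h after diphtheria toxin, and Kupffer cells of the same strain 72 h after PBS. Kupffer cells were also taken from Nr1h3 flox/flox and Smad4 flox/flox mice, with or without one copy of Clec4f-cre, and those with cre were split into TIM4+ and TIM4- cells. By title the Nr1h3 controls are TIM4+ too, while the Smad4 control titles carry t4 with no sign, so genotype and TIM4 status cannot be told apart where TIM4- cells labelled KO are set against controls. C57BL/6J liver cells with low, intermediate and high STAB2 formed 3 further groups. Bone marrow-derived macrophages (BMDM) were grown for 7 days from Nr1h3 wild-type and KO mice, for 4 days from Smad4 flox/flox mice with or without cre, and for 4 or 6 days from C57BL/6J mice. Agents in culture were DLL4, TGF-β, DAPT and DMHCA. Bone marrow monocytes of C57BL/6J mice were cultured for 2 days, with DLL4, TGF-β or desmosterol for 48 h. Last, macrophages taken 24 h after toxin came with LY411575, with antibodies to DLL1 and DLL4, or with the control of either.

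Some labels disagree. The sample labels give Clec4f-cre for the Smad4 KO BMDM, while the series' design text gives LysM-cre. The cultured bone marrow monocytes are BMmono by title, while their column names read male and BMDM, and they are called monocytes here. Titles of one C57BL/6J BMDM series say 72h, while its agents are labelled 24 h and its culture 6 days. These are called the 72h groups below, and culture age and time in agent cannot be told apart in them. The strain of the LY411575 and antibody samples is labelled C57BL/6J, while the design text names Clec4f-Cre/DTR mice, and both control groups carry the agent in their characteristics and are controls by title. Column names mark all 11 LY411575, antibody and control samples as fasted, the LY411575 samples as female and the antibody samples as male, so agent and sex cannot be told apart between these arms. Replicates are separate samples by label, and the animal or culture of each is not stated. Titles share identifiers across groups: each of the 2 STAB2 identifiers stands on a low, an intermediate and a high sample, and 1 identifier stands on a TIM4+ and a TIM4- sample labelled Smad4 KO, so these may be fractions of 1 source. The title of monocyte replicate 4 reads pool. The spread behind each p-value may be technical.

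P2RY12 and P2RY13 are receptors for ADP that signal through inhibitory G proteins, and P2RY12 guides microglial processes toward damaged cells. GPR34 is a receptor for lysophosphatidylserine. TMEM119 is a small membrane protein, FCRLS is an Fc receptor-like scavenger receptor found in mice, and OLFML3 is a secreted olfactomedin-domain protein. In the brain these genes depend on TGF-β, whose receptors phosphorylate SMAD2 and SMAD3, which then bind DNA with SMAD4. DLL4 is a Notch ligand: it leads γ-secretase to cut Notch, whose freed intracellular part joins RBPJ on DNA, and DAPT and LY411575 block γ-secretase. Nr1h3 encodes the oxysterol receptor LXRα, for which desmosterol and DMHCA are agonists.

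In the tables' gene models on mm10, P2ry12 lies on the minus strand of chromosome 3 from 59216271 to 59262985 and P2ry13 next to it on the same strand from 59207894 to 59210882. By the GENCODE annotation of the same build, 5389 bases separate them, and both sit inside Med12l, which is transcribed from the opposite strand. P2ry12 shares 9 exon bases with Med12l and P2ry13 shares 0, and Med12l was at most 2.65 TPM in any library. Fcrls (87250965 to 87263524) and Olfml3 (103735394 to 103738001) are also on the minus strand of chromosome 3. Tmem119 is on the minus strand of chromosome 5 from 113793729 to 113800352, and Gpr34 is on the plus strand of X from 13632769 to 13640858, within an intron of Cask, which runs the other way and shares 0 of its exon bases. The P2ry12 model is 2550 bases long in 6 tables and 2356 in the STAB2 and Smad4 BMDM tables, and TPM is set by that length. The promoters of P2ry13 and Olfml3 are shown because P2ry13 was called with DLL4, and Olfml3 with TGF-β on top of it, in all 5 cultures described below. They are the 250 bases before each RefSeq start on GRCm38.p6, and capitals mark the only match in each to the letters searched on both strands, TGGGAA (core of RBPJ sites), GAGGAA (core of PU.1 sites) and CAGAC (SMAD-bound CAGA box). The P2ry13 sequence is chr3:59210883-59211132, minus strand, and the Olfml3 sequence is chr3:103738002-103738251, minus strand.
P2ry13: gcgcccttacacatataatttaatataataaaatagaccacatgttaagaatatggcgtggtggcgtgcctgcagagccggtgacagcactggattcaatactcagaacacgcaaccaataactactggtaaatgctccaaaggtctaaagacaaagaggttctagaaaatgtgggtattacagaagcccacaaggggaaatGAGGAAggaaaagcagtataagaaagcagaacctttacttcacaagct
Olfml3: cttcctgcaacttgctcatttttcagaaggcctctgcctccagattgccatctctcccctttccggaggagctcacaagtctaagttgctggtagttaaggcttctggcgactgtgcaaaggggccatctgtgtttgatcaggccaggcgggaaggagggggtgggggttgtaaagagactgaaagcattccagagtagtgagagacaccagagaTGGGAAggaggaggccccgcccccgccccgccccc
The capitals are GAGGAA 48 bases before the start of P2ry13 and TGGGAA 35 bases before that of Olfml3. Among 32817 promoters of the same length, 23.3% held GAGGAA, 21.6% TGGGAA and 42.2% CAGAC. These matches describe letters and are not binding sites.

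Levels of the 6 genes spanned wide ranges. P2ry12 reached a mean of 10 TPM or more in 37 of the 47 groups, P2ry13 in 36, Olfml3 in 23, Fcrls in 22, Tmem119 in 9 and Gpr34 in 7. P2ry12 was highest in TIM4+ Kupffer cells labelled Smad4 KO (mean 109.3 TPM) and P2ry13 in bone marrow monocytes with DLL4 (228.2), where Gpr34 was highest too (81.4). Tmem119 (92.2) and Olfml3 (207.8) were highest in control BMDM with DLL4 and TGF-β, and Fcrls (1234 TPM) in Smad4 KO BMDM with the same pair. Because tables were normalized separately, these are levels and not tested differences. Sall1, a transcription factor that sets microglia apart from other macrophages, did not exceed 0.81 TPM in any library, and no brain sample was analysed here.

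Differences below are of log2(TPM + 1) from limma fits over all tested genes of a table, given with the standard error (SE) and the Benjamini-Hochberg adjusted p. A gene counts as called, and is said to rise or fall, at adjusted p below 0.05 and at least 2-fold. Of 328 member-by-comparison pairs tested, 126 were called. The share of all tested genes called ran from 0.00946% to 37.4% by comparison and is given beside the members' calls below. Comparisons of a table share groups, so these calls are not independent.

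In the liver, both ADP receptor genes were higher in Kupffer cells than in blood monocytes, and repopulating macrophages lay between them in the first days. P2ry13 stood at 5.30, 8.13, 4.63 and 5.21 TPM in the 4 monocyte libraries. The 12 h libraries held 31.7 and 34.4 TPM, the 24 h libraries 82.9, 89.5 and 87.2, the 48 h libraries 111 and 128, and the 72 h libraries 145 and 135. The 3 libraries of 168 h ran from 137 to 182 TPM and those of 336 h held 169, 184 and 186, against 157, 152 and 146 in Kupffer cells. Every repopulating library stood above every monocyte library. The 168 h libraries overlapped with Kupffer cells and the 336 h libraries lay above them. P2ry13 was 4.51 ± 0.127 higher in Kupffer cells than in monocytes (SE, adjusted p = 1.9e-15), and was already 2.34 ± 0.144 higher at 12 h (7.3e-10). In bulk samples, more cells that express a gene and more RNA per cell cannot be told apart.

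P2ry12 was called from 24 h on. Its monocyte libraries held 13.8, 18.5, 8.82 and 12.6 TPM, and those of 12 h (16.8 and 17.7) lay within that range. The 24 h libraries held 27.1, 31.7 and 31.6 TPM, the 48 h libraries 49.5 and 40.1, and the 72 h libraries 53.1 and 63.4. The 168 h libraries held 98.5, 92.3 and 77.0 TPM and the 336 h libraries 85.9, 84.2 and 83.1, all above the 66.1, 73.9 and 75.9 of Kupffer cells. The difference from monocytes was 0.38 ± 0.181 at 12 h (adjusted p = 0.074), 2.08 ± 0.181 at 72 h (1.7e-08) and 2.61 ± 0.16 at 336 h (9.2e-11). At 24 h it was 1.15 ± 0.16 (4.5e-06), and without monocyte replicate 3 it was 0.98 and under 2-fold. Although the 336 h libraries did not overlap with Kupffer cells, the differences were small and missed the threshold, at 0.23 ± 0.171 for P2ry12 (0.36) and 0.24 ± 0.136 for P2ry13 (0.22).

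**Figure D1:**
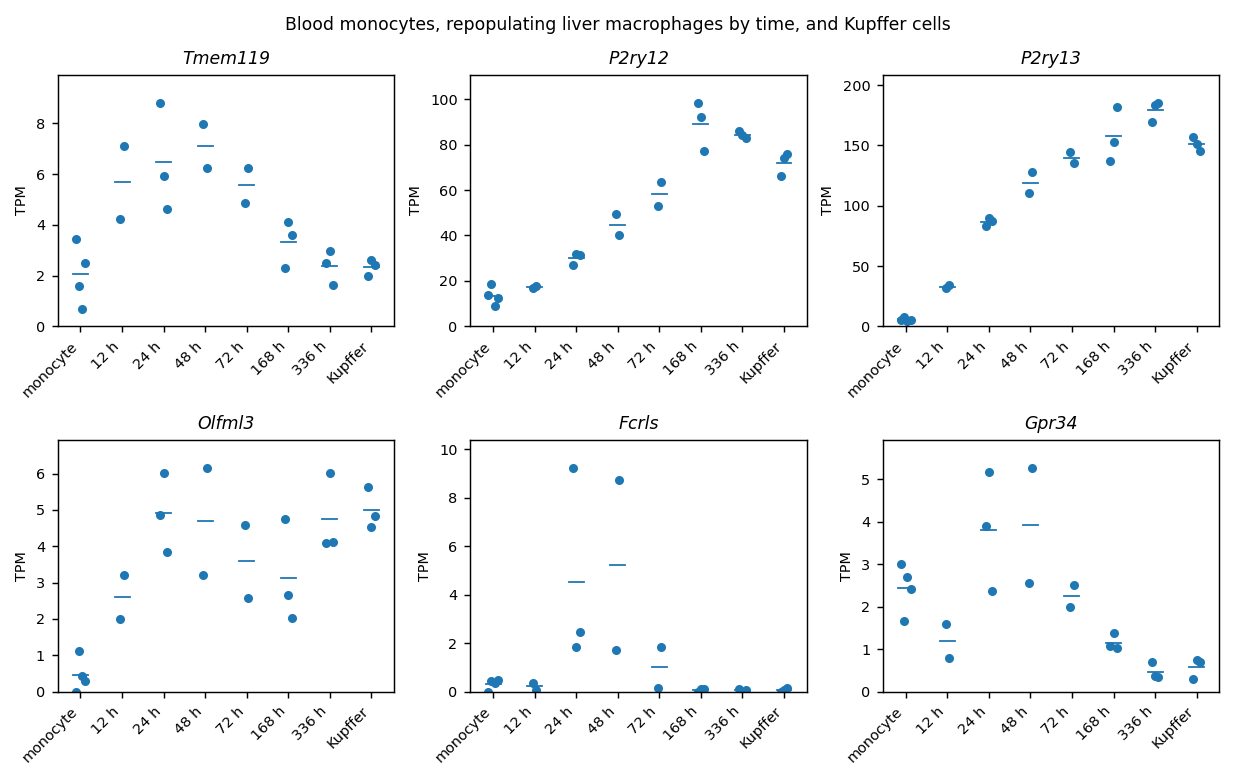
TPM of the 6 genes (y axes, linear, from 0) in blood monocytes, repopulating liver macrophages 12 to 336 h after toxin and Kupffer cells (x axis); points are libraries and lines are group means. P2ry13 and P2ry12 climb from about 5.8 and 13.4 TPM in monocytes toward Kupffer cell levels, while Fcrls, Gpr34 and Tmem119 are highest at 24 and 48 h.

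Gpr34, Fcrls and Tmem119 were highest in the first days and low in Kupffer cells. Gpr34 held 3.01, 1.67, 2.70 and 2.42 TPM in monocytes and 0.29, 0.74 and 0.71 in Kupffer cells. Its 24 h libraries held 3.91, 5.16 and 2.36 TPM, and its 48 h libraries 2.56 and 5.27. It was 1.57 ± 0.257 higher at 24 h than in Kupffer cells (adjusted p = 6.8e-05) and 1.59 ± 0.287 higher at 48 h (0.00019), with no overlap at either time. Fcrls was at most 0.50 TPM in monocytes and 0.17 in Kupffer cells. At 24 h it was 9.23, 1.83 and 2.46 TPM, above Kupffer cells by 2.11 ± 0.46 (0.00097). The 48 h libraries held 1.72 and 8.74, and without replicate 2 of that time the difference from Kupffer cells went from 2.26 to 1.34 (adjusted p = 0.071) and that from monocytes from 1.98 to 1.06 (0.1). Fcrls and Gpr34 reached the 4 TPM needed for testing only at 24 and 48 h, and Tmem119 only in repopulating macrophages. The tests of all 3 genes thus depended on the groups where they were high. Tmem119 stood at 8.82, 5.93 and 4.63 TPM at 24 h, and 7.97 and 6.24 at 48 h, against 1.97, 2.60 and 2.42 in Kupffer cells and 0.70 to 3.43 in monocytes. Its differences from Kupffer cells were 1.13 ± 0.3 at 24 h (0.0045; 0.91 without 24 h replicate 1) and 1.28 ± 0.336 at 48 h (0.0041). Markers of neutrophils summed to 98.17 to 461.3 TPM at 24 h and 5.996 to 41.32 in Kupffer cells, and those of lymphocytes to 44.21 to 144.8 and 11.67 to 71.2. None of either list was at 0 in these groups, and their part in the differences was not tested.

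Olfml3, the secreted member, was 0.00, 1.12, 0.42 and 0.29 TPM in monocytes and 5.63, 4.53 and 4.84 in Kupffer cells, a difference of 2.09 ± 0.276 (adjusted p = 2.2e-06). It was 1.99 and 3.22 TPM at 12 h and 4.86, 6.02 and 3.83 at 24 h, and the 24 h libraries overlapped with Kupffer cells. Olfml3 did not reach 4 TPM in monocytes or at 12 h, so its tests against monocytes depended on groups where it was high. The summed level of 11 stellate cell and fibroblast markers moved with it, from 0.376 to 1.182 TPM in monocytes, where 7 of the 11 (among them Dcn, Lrat and Col1a1) were at 0, to 31.49 to 176.2 at 24 h and 87.41 to 116.3 in Kupffer cells. The part of such cells in the Olfml3 level was not tested.

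Counted over the 6 genes against monocytes, 5 rose at the 24 and 48 h times, 4 at 72 h, and 3 in the 12, 168 and 336 h groups and in Kupffer cells, while Gpr34 fell at 336 h (-1.23 ± 0.24, adjusted p = 0.0002) and in Kupffer cells (-1.12 ± 0.24, 0.00042; -0.98 without Kupffer replicate 1). The share of all tested genes called was 25.2% at 12 h, 33.4% at 24 h, 37.4% at 48 h, 37.1% at 72 h, 29.0% at 168 h, 30.8% at 336 h and 35.1% in Kupffer cells. Against Kupffer cells, 2 fell at 12 h (P2ry12 and P2ry13; 23.8% of all genes called), 3 rose and P2ry12 fell at 24 h (14.7%), 3 rose at 48 h (18.5%) and Gpr34 rose at 72 h (10.9%; 1.05 ± 0.287). That call of Gpr34 ended without 72 h replicate 2 (0.93, adjusted p = 0.083), without Kupffer replicate 1 (0.91) and after quantile normalization (0.78). Tmem119 stood 0.97 ± 0.336 above Kupffer cells at 12 h and again at 72 h (0.019 and 0.03), and was called at both with a pseudocount of 0.25 (1.16 and 1.17), after quantile normalization (1.42 and 1.19) and with limma-voom (1.32 and 1.27). At 168 h and 336 h, limma called 0 of the 6 (3.99% and 3.82% of all genes), 0 passed an unadjusted p below 0.05, and limma-voom on recovered reads called 0.

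Between successive times, the step from 12 to 24 h held the members' calls. P2ry13 rose by 1.36 ± 0.152 (adjusted p = 7.3e-06), Fcrls by 1.94 ± 0.514 (0.01) and Gpr34 by 1.11 ± 0.287 (0.0086), beside 6.16% of all genes called. Without 12 h replicate 2 the adjusted p of Fcrls was 0.072 and that of Gpr34 0.11. The difference of Gpr34 was also under 2-fold without 24 h replicate 2 (0.91) and after quantile normalization (0.96). From 24 to 48 h, 48 to 72 h, 72 to 168 h and 168 to 336 h, limma and limma-voom each called 0 members, with 2, 1, 1 and 1 at an unadjusted p below 0.05, beside 4.26%, 0.422%, 8.15% and 0.0703% of all genes.

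Some calls against monocytes depended on the setting. The differences of Tmem119, 1.18 to 1.49 between 12 and 72 h, were under 2-fold after quantile normalization (0.79, 0.83, 0.94 and 0.56), which also ended the calls of Olfml3 at 12, 72 and 168 h (0.61, 0.63 and 0.62) and of Fcrls at 24 and 48 h (0.84 and 0.98). Under the same normalization Fcrls was called lower in Kupffer cells than in monocytes (-1.14), and at 168 and 336 h (-1.17 and -1.16), each at adjusted p = 0.029, with at most 0.50 TPM in any of these libraries. Without monocyte replicate 3, Tmem119 stood at 0.93 at both 12 and 72 h, and without 12 h replicate 2 at 0.87 (0.091) at 12 h.

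Among 25 other microglia genes, 19 were tested in this table, and 9 rose and 4 fell in Kupffer cells against monocytes, with a median difference of 0.98 against -0.06 over all tested genes. Sparc, a matrix glycoprotein that stromal cells also express, went from 0.0698 ± 0.0887 TPM (SD, n = 4) to 72.4 ± 34.5 (n = 3), by 5.98 ± 0.525 (adjusted p = 1.2e-08). Ltc4s, the leukotriene C4 synthase, went from 0.347 ± 0.246 to 21.7 ± 8.88. Cx3cr1, the fractalkine receptor, fell from 307 ± 83.3 to 3.17 ± 0.737, and Mef2c, a transcription factor, from 37.9 ± 9.88 to 1.96 ± 0.347. Of 9 further receptors for nucleotides or like P2Y receptors, 6 were tested, and 2 rose (P2ry14 and P2rx4) and P2ry1, another ADP receptor, fell. P2ry14, a receptor for UDP-sugars from the same gene row as P2ry12 and P2ry13, rose from 1.15 ± 0.359 to 10.6 ± 3.05 TPM, by 2.42 ± 0.163 (3.1e-10). P2ry1 fell from 16.4 ± 2.37 to 0.498 ± 0.126 TPM, by 3.53 ± 0.181 on the log2 scale (6.8e-12), so P2ry1 went the opposite way to P2ry12 and P2ry13.

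In Kupffer cells labelled Nr1h3 KO, 5 members were tested, and Tmem119 rose in the TIM4- cells while the other 4 were not called. Tmem119 was 1.85 and 1.55 TPM in control cells, 3.72 and 3.46 in TIM4+ cells labelled KO, and 8.62 and 7.22 in TIM4- cells labelled KO, with no overlap between any 2 groups. It reached the 4 TPM needed for testing only in the TIM4- cells, so its test depended on the group called higher. The TIM4- cells were 1.72 ± 0.131 above control (adjusted p = 4e-05; 4.16% of all genes called) and the TIM4+ cells 0.77 ± 0.131 (0.0045), which is under 2-fold. For that second comparison limma called 0 of 5 members (2.86% of all genes), with 3 at an unadjusted p below 0.05, and limma-voom called 2, Tmem119 at 1.05 and Olfml3 at -1.03. Quantile normalization called Olfml3 lower in both groups labelled KO (-1.21 and -1.10), where it was 2.12 to 3.70 TPM against 4.76 and 6.40 in control cells. Between TIM4- and TIM4+ cells, limma again called 0 (0.597% of all genes; 1 at an unadjusted p below 0.05) and limma-voom 1, Tmem119 at 1.12. P2ry12 stood at 101 and 87.6 TPM in control cells and 72.4 to 85.9 in the 4 libraries labelled KO, a difference of -0.33 ± 0.112 in TIM4+ cells (0.064). P2ry13 ran from 122 to 157 TPM over all 6 libraries, and its groups overlapped. Nr1h3 itself was not lower in Kupffer cells labelled KO (log2 differences of 0.02 and -0.13), and it was 2.21 lower in KO than in wild-type BMDM. These levels count reads over all exons of the gene, and which exon is floxed is not known here. They therefore cannot show whether the floxed part was deleted.

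In Kupffer cells labelled Smad4 KO, the genes that rose were Tmem119 and Gpr34, both of low level. Tmem119 was 0.48 and 0.19 TPM in control cells, 7.20, 2.52 and 4.47 in TIM4+ cells labelled Smad4 KO, and 16.7 and 6.98 in TIM4- cells. The TIM4- cells were 3.16 ± 0.502 above control (adjusted p = 0.031; 1.62% of all genes called). Gpr34 was 0.62 TPM in both control libraries, 2.14, 1.47 and 2.50 in TIM4+ cells, and 4.15 and 5.49 in TIM4- cells, which is 1.84 ± 0.334 above control (0.045). Gpr34 reached the 4 TPM needed for testing only in the TIM4- cells, and Tmem119 only in cells labelled KO. Both tests thus depended on groups where the gene was high. In TIM4+ cells limma and limma-voom called 0 of 4 members (0.965% of all genes), with 3 at an unadjusted p below 0.05; Tmem119 was 2.03 ± 0.458 above control there (0.11). P2ry12 (80.8 and 104 TPM in control) and P2ry13 (138 and 170) were not called, at 79.9 to 128 and 196 to 244 TPM in the 5 libraries labelled KO. These calls depended on the setting. A pseudocount of 0.25, no filter, quantile normalization and limma-voom each ended 1 of them. Each left-out library of the control or TIM4- groups ended the call of Gpr34 (adjusted p of 0.19 to 0.23), and 3 of these 4 libraries that of Tmem119 (0.13 to 0.21). Smad4 was 0.91 and 0.97 lower in the 2 KO groups (0.11 and 0.091).

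Markers of Kupffer cells moved with these results. Their sum over 8 genes was 17949 to 18138 TPM in Nr1h3 controls, 8298 to 9020 in TIM4+ and 5902 to 5949 in TIM4- cells labelled KO, and 16249 to 16865, 8233 to 11277 and 3954 to 5955 TPM in the matching Smad4 groups. None of the 8 was at 0 in any of these groups. The 8 include Timd4, which encodes TIM4, so the sum is not independent of the sort. The order of Tmem119 ran opposite to that of the marker sum in both tables, and the part of that order in the result was not tested. Of the other microglia genes, Cx3cr1 rose from 8.73 ± 0.284 TPM (SD, n = 2) to 90.8 ± 17.0 (n = 2) in TIM4+ and 204 ± 25.9 (n = 2) in TIM4- Nr1h3 cells, and from 5.43 ± 3.54 (n = 2) to 409 ± 158 (n = 3) and 615 ± 240 (n = 2) in the Smad4 cells. In the TIM4- Nr1h3 cells 3 of 16 tested rose and 2 fell (median 0.24 against 0.13 over all genes), and in the TIM4- Smad4 cells 3 of 17 rose and 0 fell (0.37 against 0.04).

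Kupffer cells and 7-day BMDM of the same Nr1h3 table differed in opposite directions for the ADP receptors and Fcrls. P2ry12 was 101 and 87.6 TPM in control Kupffer cells and 1.19 and 1.23 in wild-type BMDM, and P2ry13 was 157 and 131 against 4.00 and 3.85. These are differences of 5.42 ± 0.112 (adjusted p = 9.8e-10) and 4.88 ± 0.094 (7.2e-10). Fcrls was 0.10 and 0.05 TPM in Kupffer cells and 19.9 and 18.5 in BMDM, a difference of -4.23 ± 0.115 (4.6e-09). Thus 3 of 5 tested members were called, beside 36.5% of all genes. P2ry12 and P2ry13 passed the filter for testing only through Kupffer cells, and Fcrls only through BMDM. All 3 tests thus depended on the group called higher. Between KO and wild-type BMDM, limma and limma-voom called 0 members, with 2 at an unadjusted p below 0.05, beside 0.417% of all genes. Fcrls was 13.4 and 13.6 TPM in KO and 19.9 and 18.5 in wild-type BMDM there (-0.47 ± 0.115, 0.091).

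Liver cells sorted by STAB2, a scavenger receptor of sinusoidal endothelium, held low levels of most of the 6 genes. Their labels name no cell type, and endothelial markers summed to 8191 to 9604 TPM in STAB2 low cells and 19500 to 23733 in the others. These markers include Stab2 itself, so the sum is not independent of the sort. P2ry12, P2ry13, Olfml3 and Fcrls were at most 1.58 TPM, and Gpr34 had 0 reads in all 6 libraries, which allows up to 0.142 to 0.186 TPM (3 reads; counting error only). Tmem119 was the exception, at 7.61 and 7.13 TPM in STAB2 low cells, 0.25 and 0.55 in intermediate and 0.00 and 0.11 in high cells. It was 2.99 ± 0.357 above STAB2 high (adjusted p = 0.0015; 13.6% of all genes called) and 2.59 ± 0.357 above intermediate cells (0.0035; 10.4%). Tmem119 reached the 4 TPM needed for testing only in STAB2 low cells, so both tests depended on the group called higher. Macrophage markers summed to 136.7 to 141.3 TPM in STAB2 low and 299.5 to 362 in the other cells. The part of macrophages or of other cells in the Tmem119 level was not tested.

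In BMDM of Smad4 flox/flox mice without cre, TGF-β for 24 h raised all 6 genes. Tmem119 went from 2.04 and 1.52 TPM to 90.3 and 73.8, by 4.90 ± 0.133 (adjusted p = 5.5e-12). Olfml3 went from 38.2 and 43.0 to 186 and 177 TPM, by 2.14 ± 0.072 (3.4e-11), and Fcrls from 96.4 and 98.5 to 423 and 569, by 2.32 ± 0.09 (1.4e-10). P2ry12 went from 5.68 and 5.47 to 27.9 and 32.9 TPM, by 2.25 ± 0.082 (6.8e-11), and P2ry13 from 4.58 and 4.45 to 13.3 and 14.6, by 1.44 ± 0.094 (3.3e-08). Gpr34 went from 0.97 and 1.14 to 3.97 and 10.8 TPM, by 1.90 ± 0.277 (9.9e-05), a value that ran from 1.28 without TGF-β replicate 2 to 2.53 without replicate 1. All 6 were called beside 4.17% of all genes. Tmem119 passed the filter for testing only through groups given an agent, so its test depended on groups where it was high. Among the other microglia genes 8 of 22 tested rose and 0 fell, with a median of 0.60 against -0.05 over all genes. They included Pmepa1, a TGF-β target that restrains SMAD signalling (0.776 ± 0.254 to 67.9 ± 10.7 TPM, SD, n = 2 each) and Cx3cr1 (122 ± 9.39 to 489 ± 49.3).

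DLL4 raised the receptor genes and not Olfml3. P2ry13 went from 4.58 and 4.45 to 35.2 and 39.0 TPM, by 2.79 ± 0.094 (adjusted p = 3.8e-11), and P2ry12 to 27.6 and 27.1, by 2.11 ± 0.082 (1.5e-10). Gpr34 reached 7.80 and 7.72 TPM, by 2.09 ± 0.277 (4.8e-05), and Fcrls 288 and 284, by 1.54 ± 0.09 (1.2e-08). Tmem119 reached 4.78 and 4.63 TPM, by 1.04 ± 0.133 (3.6e-05), which was under 2-fold without untreated replicate 2 (0.91) and after quantile normalization (0.88). Olfml3 stood at 44.8 and 42.1 TPM with DLL4, a difference of 0.10 ± 0.072 (0.3). So 5 of 6 rose, beside 4.06% of all genes, with 4 of 22 other microglia genes, among them Entpd1, the ectonucleotidase CD39 (8.16 ± 0.953 to 56.9 ± 3.5 TPM), and Tgfbr1, a TGF-β receptor (35.7 ± 0.0325 to 118 ± 5.51). P2ry14 rose too, from 3.29 ± 1.44 to 7.43 ± 0.0728 TPM (1.02 ± 0.22, adjusted p = 0.0021).

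Blocking γ-secretase lowered 4 of the 5 genes that DLL4 raised. With DAPT beside DLL4, P2ry12 was 10.98 and 11.3 TPM, P2ry13 11.8 and 11.7, Fcrls 137 and 137, and Gpr34 3.24 and 2.56. The differences from DLL4 alone were -1.23 ± 0.082 (adjusted p = 8.2e-08), -1.58 ± 0.094 (2.6e-08), -1.06 ± 0.09 (1.2e-06) and -1.17 ± 0.277 (0.0065; 0.055 without DAPT replicate 2), beside 2.09% of all genes called. Against untreated cells, P2ry13 alone was called with the pair (1.21 ± 0.094, 8.6e-06; 0.312% of all genes), and P2ry12 stood 0.88 ± 0.082 higher (3.8e-05). Tmem119 (3.00 and 4.19 TPM) differed from DLL4 alone by -0.33 ± 0.133 (0.081) and Olfml3 (46.7 and 42.6) by 0.04 ± 0.072 (0.72).

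TGF-β added to DLL4 took Tmem119 to 94.2 and 90.1 TPM, P2ry12 to 70.2 and 69.3, Olfml3 to 213 and 203, and Fcrls to 644 and 648. All 4 rose over DLL4 alone, by 4.03 ± 0.133 (adjusted p = 3.7e-11), 1.32 ± 0.082 (1.5e-08), 2.23 ± 0.072 (3.2e-11) and 1.17 ± 0.09 (1.3e-07), beside 6.66% of all genes. P2ry13 (58.6 and 56.3 TPM) stood 0.62 ± 0.094 higher (0.0001) and Gpr34 (11.4 in both) 0.50 ± 0.277 (0.16). Against TGF-β alone, the pair raised P2ry12 by 1.18 ± 0.082 (2.9e-08) and P2ry13 by 1.97 ± 0.094 (7.3e-10), beside 8.8% of all genes. Gpr34, at 0.69 there, was called (1.32, adjusted p = 2.4e-05) without TGF-β replicate 2. P2ry12 was higher with both agents than with either alone, while Tmem119 stood 0.17 ± 0.133 from TGF-β alone (0.29). The TGF-β effect was smaller in the presence of DLL4 for Fcrls (-1.15 ± 0.128, 3.9e-05; -0.94 without TGF-β replicate 2) and Gpr34 (-1.40 ± 0.392, 0.031; -0.78 without that library, and ended by leaving out any of the other libraries but TGF-β replicate 1, by no filter and by quantile normalization), beside 2.45% of all genes called. P2ry12 (-0.93 ± 0.116, 9.7e-05) and Tmem119 (-0.87 ± 0.189, 0.0072) were under 2-fold there, and were called with a pseudocount of 0.25 (-1.05 and -1.12) and with limma-voom (-1.09 and -1.23).

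**Figure D2:**
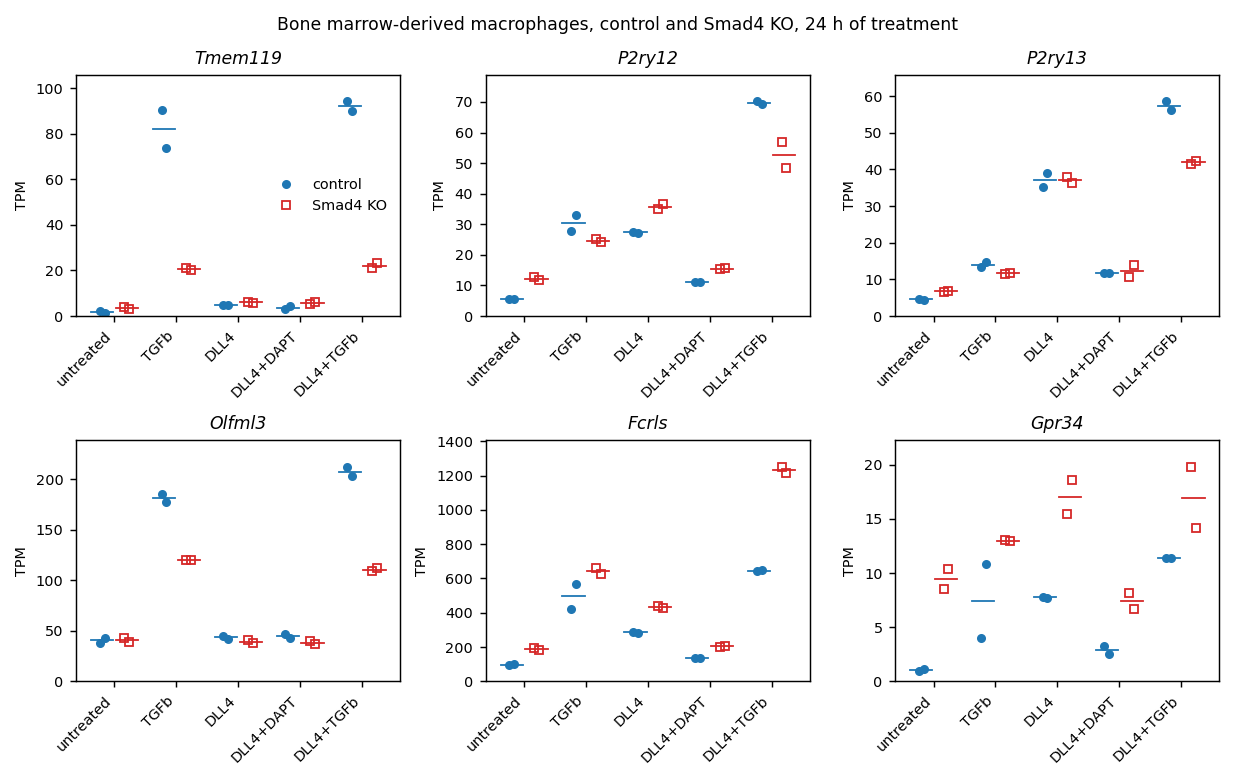
TPM of the 6 genes (y axes, linear, from 0) in 4-day BMDM of control (filled blue) and Smad4 KO (open red) mice under 5 treatments of 24 h (x axis); points are libraries and lines are group means. Tmem119 reaches 73.8 to 94.2 TPM with TGF-β in control cells and 20.4 to 23.2 in Smad4 KO cells, while Fcrls is highest in Smad4 KO cells with DLL4 and TGF-β.

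The same agents were given to Smad4 KO BMDM, in which Smad4 transcripts were reduced and not absent (-1.22 ± 0.083 in untreated cells, adjusted p = 3.3e-07). With TGF-β, Tmem119 reached 20.9 and 20.4 TPM from 4.06 and 3.23, by 2.23 ± 0.133 (1.8e-07), Olfml3 120 and 121 from 42.5 and 38.9, by 1.54 ± 0.072 (1.2e-08), and Fcrls 660 and 627 from 193 and 184, by 1.77 ± 0.09 (2.6e-08). These 3 were called beside 0.545% of all genes. The test of the difference between genotypes called Tmem119 (-2.67 ± 0.189, 1.4e-06), P2ry12 (-1.30 ± 0.116, 9e-06) and Gpr34 (-1.48 ± 0.392, 0.037), beside 1.2% of all genes. That of Gpr34 ended without any 1 of its 8 libraries except control TGF-β replicate 1, with no filter (adjusted p = 0.098) and after quantile normalization (0.056), and was -0.85 without control TGF-β replicate 2. Without that library Gpr34 was also called higher in TGF-β-treated KO than control cells (1.49, 2.7e-05). Olfml3 (-0.60 ± 0.102, 0.0021), P2ry13 (-0.72 ± 0.134, 0.0037) and Fcrls (-0.55 ± 0.128, 0.017) had smaller TGF-β effects in KO cells by less than 2-fold.

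At the level of TGF-β-treated cells, Tmem119 was 1.94 ± 0.133 lower in KO than in control BMDM (adjusted p = 1.5e-07; 1.85% of all genes called), and with both agents 2.01 ± 0.133 lower (7.6e-08; 2.7%). Olfml3 with both agents was 109 and 112 TPM in KO and 213 and 203 in control cells (-0.90 ± 0.072, 5.3e-07), and Fcrls was 1252 and 1216 against 644 and 648 (0.93 ± 0.09, 3.3e-06). Tmem119 and Fcrls thus differed between genotypes in opposite directions, the second by less than 2-fold. In untreated cells 2 members rose in KO over control BMDM (1.13% of all genes). P2ry12 was 12.7 and 11.8 against 5.68 and 5.47 TPM (1.01 ± 0.082, 1.9e-06; 0.96 without KO replicate 1 and 0.99 without control replicate 2), and Gpr34 8.55 and 10.4 against 0.97 and 1.14 (2.35 ± 0.277, 6.9e-05). The neutrophil marker sum was 2619 to 2807 TPM in untreated KO and 4659 to 4861 in untreated control cells, with none of the 6 at 0, and its part in these differences was not tested.

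DLL4 raised 3 members in KO cells. P2ry12 reached 34.8 and 36.6 TPM (1.47 ± 0.082, adjusted p = 9.5e-09), P2ry13 38.1 and 36.2 (2.31 ± 0.094, 3.6e-10) and Fcrls 440 and 430 (1.20 ± 0.09, 2.2e-07), beside 3.39% of all genes called. The interaction of DLL4 and genotype was called by limma and limma-voom for 0 members, with 5 at an unadjusted p below 0.05, and for 0.0% of all genes; its largest values were those of Gpr34 (-1.31 ± 0.392, 0.34) and P2ry12 (-0.64 ± 0.116, 0.058). DAPT lowered the same 4 members in KO cells, by 1.15 ± 0.082 for P2ry12 (1.9e-07), 1.53 ± 0.094 for P2ry13 (5.1e-08), 1.09 ± 0.09 for Fcrls (9.4e-07) and 1.10 ± 0.277 for Gpr34 (0.0096; 0.066 without DLL4 replicate 2 and 0.07 without DAPT replicate 2), beside 1.82% of all genes. Against untreated KO cells, limma and limma-voom called 0 members with DLL4 and DAPT (0.166% of all genes), with 3 at an unadjusted p below 0.05.

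TGF-β added to DLL4 in KO cells raised Tmem119 to 21.1 and 23.2 TPM (1.72 ± 0.133, adjusted p = 2.8e-06), Olfml3 to 109 and 112 (1.47 ± 0.072, 2.2e-08) and Fcrls to 1252 and 1216 (1.50 ± 0.09, 2.8e-07), beside 0.799% of all genes. Only for Tmem119 was the difference from control cells called (-2.31 ± 0.189, 5.4e-06; 2.23% of all genes). Over TGF-β alone, the pair raised P2ry12 by 1.06 ± 0.082 (2.6e-07; 0.94 without replicate 1 of the pair) and P2ry13 by 1.77 ± 0.094 (6.8e-09), beside 4.22% of all genes. Fcrls was 0.94 ± 0.09 higher in that comparison (2.2e-06).

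C57BL/6J BMDM repeated the culture with a later time. In the 24h groups DLL4 raised P2ry12 from 2.12 and 1.93 to 17.4 and 19.3 TPM (2.68 ± 0.11, adjusted p = 1.4e-09), P2ry13 from 2.47 and 2.68 to 28.2 and 32.9 (3.14 ± 0.141, 2.8e-09), Gpr34 from 0.88 and 0.53 to 6.18 and 5.96 (2.06 ± 0.276, 8.8e-05), and Fcrls from 11.3 and 11.6 to 62.7 and 65.3 (2.38 ± 0.1, 1.6e-09). Beside these 4, 2.75% of all genes were called. Over all C57BL/6J BMDM, P2ry12 and Gpr34 reached the 4 TPM needed for testing only in groups given DLL4. Their tests thus depended on groups where they were high. Olfml3 went from 10.1 and 11.1 to 21.4 and 22.5 TPM (0.98 ± 0.11, 1.9e-05), just under 2-fold (1.03 and called with a pseudocount of 0.25, 1.02 with limma-voom), and Tmem119 stood at 3.80 and 3.19 against 3.32 and 4.22 (0.08 ± 0.16, 0.75). TGF-β on top took Tmem119 to 65.5 and 66.2 TPM (3.82 ± 0.16, 1.1e-09), Olfml3 to 166 and 163 (2.85 ± 0.11, 5.1e-10) and Fcrls to 191 and 177 (1.51 ± 0.1, 7.8e-08), beside 3.8% of all genes. P2ry12, at 35.6 and 37.9 TPM, was 0.96 ± 0.11 higher (1.5e-05), and Gpr34, at 6.12 and 5.58, was -0.05 ± 0.276 from DLL4 alone (0.92).

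In the 72h groups DLL4 raised P2ry13 and lowered Fcrls. P2ry13 rose from 4.58 and 4.49 to 16.8 and 17.3 TPM (1.70 ± 0.141, adjusted p = 2.2e-06), while Fcrls fell from 36.0 and 31.9 to 3.47 and 3.19 (-3.01 ± 0.1, 3.5e-10), beside 1.73% of all genes called. P2ry12 was 2.59 and 2.12 TPM without and 4.72 and 4.03 with DLL4 (0.68 ± 0.11, 0.00075). A test of DLL4 by time, added after the members' values had been seen, called Fcrls (-5.39 ± 0.141, 1.2e-10), P2ry12 (-2.00 ± 0.156, 3.4e-06), P2ry13 (-1.44 ± 0.2, 0.00041) and Gpr34 (-1.62 ± 0.39, 0.017), beside 1.67% of all genes. Fcrls thus moved in opposite directions with DLL4 in the 24h and the 72h groups. The call of Gpr34 ended after quantile normalization (-1.24, adjusted p = 0.14) and without any 1 of 6 of its 8 libraries (adjusted p of 0.05 to 0.078). Here too the tests of P2ry12 and Gpr34 depended on groups given DLL4.

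TGF-β on top of DLL4 in the 72h groups raised Tmem119 to 12.0 and 12.2 TPM from 3.94 and 5.12 (1.25 ± 0.16, adjusted p = 3.9e-05), P2ry12 to 9.79 and 10.4 (1.05 ± 0.11, 6.3e-06; 0.95 without DLL4 replicate 2 and 0.94 after quantile normalization), Olfml3 to 38.9 and 42.8 from 9.26 and 8.75 (2.06 ± 0.11, 1.1e-08), and Fcrls to 29.3 and 26.4 (2.74 ± 0.1, 4e-10), beside 5.65% of all genes. The TGF-β effect was smaller at 72h for Tmem119 (-2.57 ± 0.226, 4.4e-06) and larger for Fcrls (1.23 ± 0.141, 3.5e-05), beside 5.26% of all genes. Levels with the pair were lower at 72h than at 24h for Tmem119 (-2.35 ± 0.16, 4e-08), P2ry12 (-1.77 ± 0.11, 1.7e-08), Olfml3 (-1.99 ± 0.11, 4.9e-09) and Fcrls (-2.68 ± 0.1, 1.2e-10), beside 10.5% of all genes, and Gpr34 differed by 0.01 ± 0.276 (0.98). In untreated cells 3 members rose from 24h to 72h, beside 13.8% of all genes. Tmem119 went from 3.80 and 3.19 to 8.08 and 8.11 TPM (1.02 ± 0.16, 8.7e-05, and 0.92 without 24h replicate 2). Fcrls rose by 1.49 ± 0.1 (2.5e-08) and Gpr34 by 1.01 ± 0.276 (0.0059, and 0.82 to 0.86 without 24h replicate 2 or 72h replicate 1). P2ry12, P2ry13 and Olfml3 were not called (means of 2.02 to 2.35, 2.6 to 4.5 and 10.6 to 8.83 TPM). In that last comparison the median over all genes was -0.21, and quantile normalization brought it to -0.02 and ended the call of Gpr34 (0.65, 0.13).

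The LXR agonist DMHCA alone lowered Tmem119 from 3.80 and 3.19 to 0.71 and 1.34 TPM (-1.17 ± 0.16, adjusted p = 5.8e-05; -0.94 without DMHCA replicate 1 and -0.81 after quantile normalization) and Fcrls from 11.3 and 11.6 to 3.87 and 2.97 (-1.50 ± 0.1, 7.3e-08), beside 5.43% of all genes. Neutrophil markers moved with these: the sum over 6 genes was 1900 to 2443 TPM in untreated and 281.7 to 298.5 in DMHCA libraries, where Ly6g was at 0, and their part was not tested. Libraries with DMHCA alone held 8303091 and 7830297 reads, against 13305949 and 18633545 in untreated cells. Of these reads, 9 to 16 per DMHCA library were of Tmem119 and 34 to 47 of Fcrls. Added to DLL4 and TGF-β in the 24h groups, DMHCA left Tmem119 at 76.0 and 75.7 TPM. There limma and limma-voom called 0 members, with 4 at an unadjusted p below 0.05, beside 1.23% of all genes. P2ry12 was 25.0 and 21.8 TPM there against 35.6 and 37.9 without DMHCA (-0.63 ± 0.11, 0.0013). In the 72h groups Gpr34 fell from 6.78 and 5.09 to 1.00 and 3.05 TPM (-1.28 ± 0.276, 0.0029; -0.77 without replicate 1 of the 3 agents), beside 5.21% of all genes.

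In cultured bone marrow monocytes DLL4 raised 3 receptor genes. P2ry13 went from 13.2 and 10.9 to 225 and 231 TPM (4.14 ± 0.073, adjusted p = 6.9e-11), Gpr34 from 8.27 and 7.06 to 83.1 and 79.7 (3.25 ± 0.084, 6.8e-10), and P2ry12 from 13.5 and 11.3 to 83.6 and 83.7 (2.67 ± 0.076, 1.4e-09). Tmem119 fell from 6.34 and 6.12 to 1.44 and 2.35 TPM (-1.34 ± 0.163, 5e-05), and Fcrls from 46.0 and 40.8 to 11.02 and 11.5 (-1.85 ± 0.104, 1.7e-07). So 3 rose and 2 fell, beside 19.5% of all genes called, and Olfml3 stood at 16.9 and 15.1 without and 9.65 and 11.4 with DLL4 (-0.57 ± 0.127, 0.0028). TGF-β with DLL4 raised Olfml3 to 124 and 129 TPM (3.48 ± 0.127, 2.7e-08) and lowered Fcrls to 1.30 and 1.03 (-2.51 ± 0.104, 6.3e-08), beside 8.81% of all genes. P2ry13 stood at 128 and 127 TPM (-0.84 ± 0.073, 1e-05) and Gpr34 at 42.1 and 38.7 (-0.99 ± 0.084, 7.7e-06), both under 2-fold, and Gpr34 was called with a pseudocount of 0.25 (-1.01) and with limma-voom (-1.02). Tmem119 was 1.70 and 2.09 TPM, a difference of 0.01 ± 0.163 from DLL4 alone (0.95). The median over all genes was -0.10 in that comparison and 0.03 after quantile normalization.

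Other genes of the lists moved in these monocytes. With DLL4 6 of 18 tested microglia genes rose and 2 fell (median 0.37 against -0.05): Cx3cr1 rose from 9.97 ± 0.651 to 234 ± 0.877 TPM (SD, n = 2 each) and Ltc4s from 4.24 ± 0.749 to 112 ± 5.66, while Trem2, a lipid-sensing receptor, fell from 643 ± 18.7 to 82.3 ± 4.68. TGF-β with DLL4 raised 7 and lowered 2 of the 18 (0.12 against -0.10), among them Siglech, the lectin Siglec-H (0.622 ± 0.00212 to 16.4 ± 1.61 TPM), and Pmepa1 (0.301 ± 0.00283 to 23.5 ± 0.255). Gpr171, from the same gene row as P2ry12, rose with DLL4 from 1.06 ± 0.0127 to 9.43 ± 0.516 TPM (2.34 ± 0.095, adjusted p = 1.7e-08). With desmosterol, alone and on top of DLL4 and TGF-β, limma and limma-voom called 0 members, with 4 and 3 at an unadjusted p below 0.05, beside 0.244% and 0.205% of all genes. Olfml3 with all 3 agents was 166 and 162 TPM, 0.37 ± 0.127 above the pair (0.11).

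**Figure D3:**
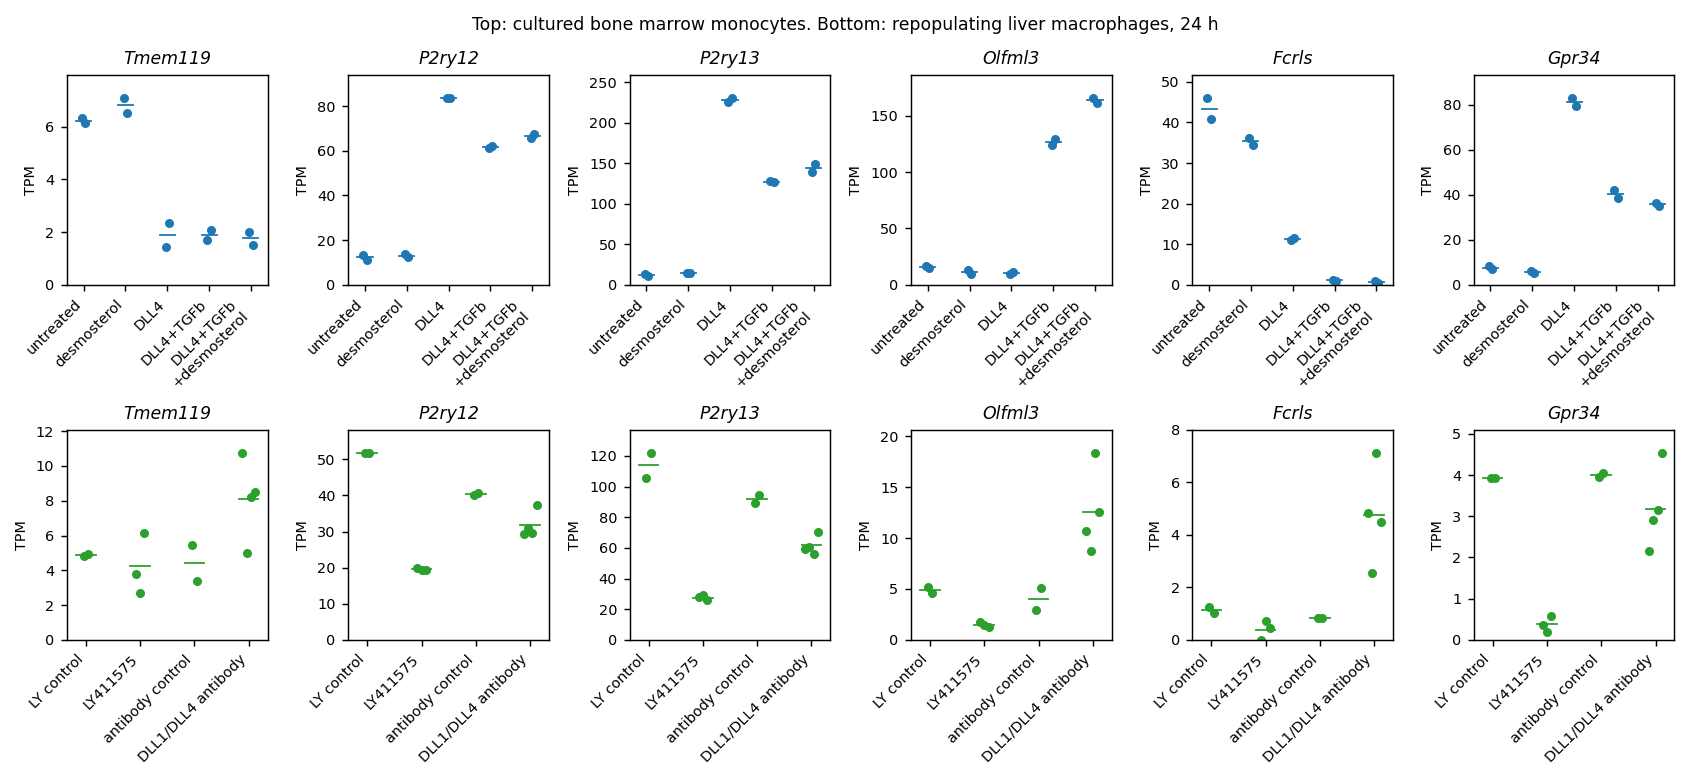
TPM of the 6 genes (y axes, linear, from 0) by group (x axis) in cultured bone marrow monocytes (top row) and in repopulating liver macrophages 24 h after toxin (bottom row); points are libraries and lines are group means. DLL4 takes P2ry13 and Gpr34 to 225 to 231 and 79.7 to 83.1 TPM, and LY411575 libraries hold less of both than their controls.

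In the liver 24 h after toxin, γ-secretase inhibition by LY411575 lowered the same receptors. P2ry13 was 105.6 and 122 TPM in control and 27.9, 29.1 and 25.8 in LY411575 samples (-2.00 ± 0.101, adjusted p = 1.5e-07). P2ry12 was 51.7 and 51.8 against 19.9, 19.4 and 19.4 TPM (-1.36 ± 0.097, 1.9e-06), and Gpr34 3.94 and 3.92 against 0.36, 0.20 and 0.59 (-1.84 ± 0.283, 0.00058). Olfml3 fell as well, from 5.21 and 4.61 to 1.72, 1.47 and 1.23 TPM (-1.26 ± 0.276, 0.0056; adjusted p = 0.053 without control replicate 1). These 4 fell beside 6.38% of all genes called, and Tmem119 overlapped between the groups (-0.22 ± 0.317, 0.65). Stellate cell and fibroblast markers moved with Olfml3, at 91 to 95.72 TPM in control and 40.32 to 42.88 in LY411575 samples, with none of the 11 at 0, and their part was not tested. Cx3cr1 fell from 515 ± 4.73 TPM (SD, n = 2) to 87.9 ± 2.07 (n = 3).

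With antibodies to DLL1 and DLL4, Olfml3 and Fcrls rose. P2ry13 was 89.2 and 94.4 TPM in control and 59.5, 60.6, 56.3 and 70.7 with antibody, with no overlap but under 2-fold (-0.57 ± 0.096, adjusted p = 0.0029), and P2ry12 was 40.0 and 40.6 against 29.4, 31.1, 29.6 and 37.3 (-0.34 ± 0.092, 0.035). Olfml3 rose from 2.94 and 5.05 to 10.7, 8.77, 18.4 and 12.5 TPM (1.43 ± 0.262, 0.005; 0.051 without control replicate 1), and Fcrls from 0.82 and 0.84 to 4.82, 2.54, 7.12 and 4.48 (1.59 ± 0.372, 0.019; 0.061 to 0.076 without either control or antibody replicate 3), beside 2.07% of all genes. Fcrls reached the 4 TPM needed for testing only in antibody libraries, so its test depended on the group called higher. Stellate cell and fibroblast markers summed to 50.64 to 57.79 TPM in control and 34.37 to 97.51 with antibody, groups that overlap. The response to antibody minus that to LY411575 was 1.02 ± 0.134 for P2ry12 (0.0006; 0.94 without antibody replicate 4), 1.43 ± 0.139 for P2ry13 (8e-05), 2.69 ± 0.381 for Olfml3 (0.001), 2.24 ± 0.541 for Fcrls (0.021) and 1.56 ± 0.391 for Gpr34 (0.024), beside 5.38% of all genes. The adjusted p of that difference was 0.06 to 0.082 for Fcrls without any 1 of the control libraries but antibody control replicate 2, and 0.05 to 0.093 for Gpr34 without any 1 of the 4. Sex and agent cannot be told apart in that difference.

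**Figure D4:**
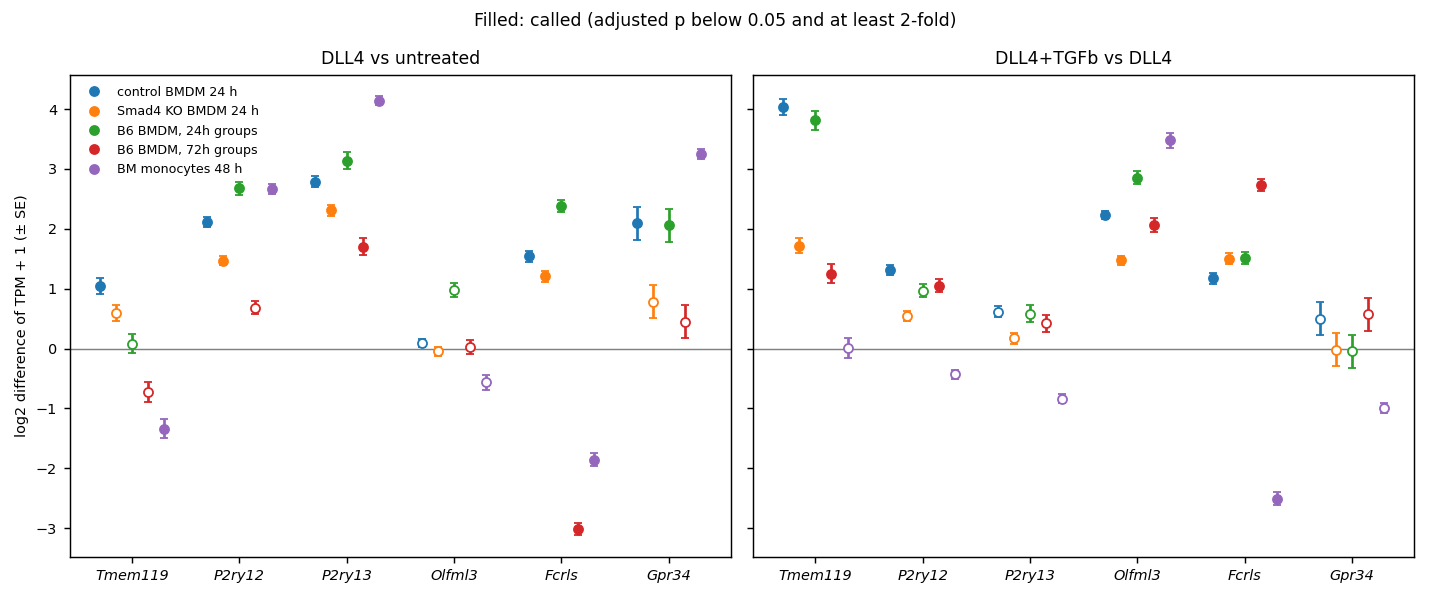
Log2 difference of TPM + 1 with its SE (y axis) for the 6 genes (x axis) with DLL4 against untreated (left) and DLL4 with TGF-β against DLL4 (right) in 5 cultures (colours); filled points are called. DLL4 lies above 0 for P2ry12 and P2ry13 in all 5 cultures and below 0 for Fcrls in the 72h BMDM and the monocytes, and TGF-β lies above 0 for Olfml3 in all 5.

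Across the 5 cultures in the plot of differences, P2ry13 rose with DLL4 in each (1.70 to 4.14), P2ry12 in 4, Gpr34 in 3, Fcrls rose in 3 and fell in 2, Tmem119 rose in 1 and fell in 1, and Olfml3 was called in none. TGF-β on top of DLL4 raised Olfml3 in each of the 5 (1.47 to 3.48) and Tmem119 in the 4 of BMDM, raised P2ry12 in 2, and raised Fcrls in 4 and lowered it in 1. P2ry13 and Gpr34 were called in none of these 5. The comparisons with TGF-β share their DLL4 libraries with the comparisons of DLL4.

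Likeness of pattern was described over group means within a table, as Pearson's r of log2(TPM + 1), without a test, since the groups of a table share its normalization. Over the 8 group means of monocytes, repopulating macrophages and Kupffer cells, P2ry12 was most like Tlr3 (0.998), Tlr12 (0.995) and Adamdec1 (0.994), and P2ry13 most like Frmd4b (0.998), Slc40a1 (0.998) and Cd72 (0.997). Olfml3 was most like Hmox1 (0.984), Dcn (0.983) and Prelp (0.978), of which Dcn is one of the stellate cell and fibroblast markers. Tmem119 was most like Wdr5 (0.991), Fcrls most like Ash2l (0.963) and Gpr34 most like Rwdd2b (0.983). P2ry12 and P2ry13 had an r of 0.912 with each other there, Olfml3 and P2ry13 one of 0.911, and Fcrls and Gpr34 one of 0.867. Over the 10 group means of Smad4 BMDM, Tmem119 was most like Ncf1 (0.996) and Olfml3 most like Nmt1 (0.995) and Pmepa1 (0.992). Tmem119 and Olfml3 had an r of 0.965 with each other, and P2ry12 and Fcrls one of 0.909. P2ry12 and P2ry13 had one of 0.908, and Olfml3 and P2ry13 one of 0.397.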

How the data were processed

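RNA-seq of 104 mouse libraries in 8 tables was used. Per the submitters' processing notes, STAR, HOMER and mm10 were used (versions: not given in the sources used here), and the header of 1 table records HOMER's exon counting per gene with output as TPM. The deposited values are TPM made by the authors, from oligo(dT)-selected, dUTP-marked libraries per the labels' protocols; whether counting used strand is not stated, so sense and antisense reads could not be separated. TPM over listed genes summed to 510684 to 574479 per library. Steps in low values (up to 20 reads) gave whole reads, within 0.1 read, for at least 99.468% of them.

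Genes with at least 4 TPM in at least 2 libraries of a table were tested on log2(TPM + 1) with limma 3.58.1 in R 4.3.3 (a mean per group, 1 model per table, empirical Bayes with trend), with Benjamini-Hochberg adjustment over all tested genes. Tmem119 passed this filter in all 8 tables, P2ry12 and P2ry13 in 7, and Olfml3, Fcrls and Gpr34 in 6. A member could pass through the group in which it was high, and its test then depended on that group. The members and gene lists were chosen with earlier results of these data known. Named in the text are the 6 members and, by rule, called list genes with the largest differences and a mean of at least 10 TPM; P2ry14 and Gpr171 were named for their place beside P2ry12. Some list genes that the rule names are not reported here. Alternatives were a pseudocount of 0.25, no filter, quantile normalization, limma-voom on recovered reads, the replicate number as a block, and leaving out each library. The fit was checked on simulated data. Promoters come from RefSeq (4 of 6 members matched). P2ry12 and Fcrls windows hold annotated exons and are not shown. Gene positions were compared with GENCODE vM21.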

Additional observations from a re-analysis of the deposited data

Results flagged for a closer look

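Each value here is a difference between 2 responses on the log2(TPM + 1) scale that passed the limma test of the difference itself. Groups of 2 or 3 libraries were not tested for a library far from the others. In BMDM, the TGF-β response of Smad4 KO minus control cells was -2.67 for Tmem119, -1.30 for P2ry12 and -1.48 for Gpr34, and on top of DLL4 it was -2.31 for Tmem119. The value of Gpr34 rests on control TGF-β libraries of 3.97 and 10.8 TPM. It was -0.85 without the second, and its call ended without any 1 of 7 of its 8 libraries.

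In C57BL/6J BMDM, the response to TGF-β on top of DLL4 in the 72h minus the 24h groups was -2.57 for Tmem119 and 1.23 for Fcrls. The DLL4 response of the 72h minus the 24h groups was -2.00 for P2ry12, -1.44 for P2ry13, -5.39 for Fcrls and -1.62 for Gpr34. The call of Gpr34 ended without any 1 of 6 of its 8 libraries. This test was added after the members' values had been seen, and P2ry12 and Gpr34 passed the filter only through groups given DLL4.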

How the results depend on the processing

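Of the member-by-comparison calls, 41 were made in the monocyte and Kupffer cell table, 4 in the Nr1h3 table, 2 in the STAB2 table, 2 in the Smad4 Kupffer cell table, 41 in Smad4 BMDM, 23 in C57BL/6J BMDM, 6 in the LY411575 and antibody table and 7 in bone marrow monocytes. Leaving out each library in turn gave 38 to 43, 4 to 5, 2 to 2, 0 to 2, 39 to 43, 22 to 25, 4 to 6 and 7 to 8. In the Nr1h3 table quantile normalization gave 7 calls and limma-voom 7. In the Smad4 Kupffer cell table a pseudocount of 0.25, no filter, quantile normalization and limma-voom gave 1 call each. No called difference changed sign under any of these settings.

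Against the median over all genes, limma-voom shifted 7 of 18 comparisons of the monocyte and Kupffer cell table by over 0.1, by up to 0.208, and quantile normalization shifted 9 comparisons of 5 tables by up to 0.183. With replicate numbers as a replicate block, calls numbered 4 in the Nr1h3 table, 2 in STAB2, 41 in Smad4 BMDM, 23 in C57BL/6J BMDM, 5 in the LY411575 and antibody table and 7 in bone marrow monocytes. Correlations of same-numbered libraries ran from -0.26 to 0.34. In the STAB2 table, where the numbers are identifiers shared by the 3 fractions, 4 of 6 pairs were above 0.1 and the lowest was 0.06, and the block kept both calls (Tmem119 at 2.99 and 2.59, adjusted p = 0.002 and 0.0044). With 2 libraries per group there, both identifiers give the same correlation for any 2 groups, so each value is counted 2 times. Elsewhere the samples share only a number, and in the antibody arm the column names number them differently from the titles. The Smad4 Kupffer cell table, where only 1 identifier is shared, and the monocyte and Kupffer cell table, where none is, were not blocked. The block ended 3 of 250 pairs' calls, those of Fcrls with antibody (adjusted p = 0.084), of P2ry12 in antibody minus LY411575 (a log2 difference of 0.94, under 2-fold) and of Gpr34 there (adjusted p = 0.051), and added 0. Low reads limit the lowest levels: Gpr34 had 0 reads in all 6 STAB2 libraries.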
